A study of Mus musculus with 6 samples.

Results

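The genes described here encode the SR proteins and the heterogeneous nuclear ribonucleoproteins (hnRNPs), the main families of RNA-binding proteins that steer splicing. They are the rows of the gene count table whose symbol starts with Srsf or Hnrnp, 31 of 21878 rows, of which 11 are SR protein genes and 20 are hnRNP genes. Poly(A) RNA was sequenced from bone marrow-derived macrophages of wild-type C57BL/6 mice, with 3 libraries from cells given β-elemene, a plant sesquiterpene, and 3 from cells given phosphate-buffered saline (PBS). In both groups the marrow cells had been differentiated in 50 ng/mL macrophage colony-stimulating factor and then kept for 48 h across a 0.4 μm membrane from Lewis lung carcinoma (LLC) cells, a mouse lung tumour line. β-elemene was then added at 100 μg/mL, or PBS in equal volume, for 24 h. The sample titles carry the letters M1 for β-elemene and M2 for PBS. Age and sex of the mice are not given in the labels, nor is whether the 3 libraries of a group came from separate cultures, so every p-value here rests on a spread between libraries that could be technical only.

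SR proteins carry RNA recognition motifs and a tail rich in arginine and serine, which kinases phosphorylate. They bind exonic enhancers and recruit the spliceosome. The hnRNPs coat nascent transcripts, and many of them repress exons by competing with SR proteins. In both families, splicing of the gene's own transcript to a form removed by nonsense-mediated decay is a known way of holding the protein level steady, and in macrophages several members also act on the stability and translation of inflammatory mRNAs.

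Library totals ran from 18916844 to 20729887 counts. Macrophage markers were abundant, with 10 of 10 listed genes tested. Their summed level was 16740 to 17302 CPM (counts scaled to a common library size, here by TMM) with β-elemene against 15033 to 16168 with PBS. Of them 7 were called higher and 3 lower, beside 36.6% and 40.2% of all genes tested. With library totals alone 4 were called higher and 5 lower, beside 18.9% and 69.8%, so these calls depended on the scaling. Among the macrophage markers the largest log2 fold changes in either direction after TMM scaling were those of Fcgr1 (2.86) and Cd14 (2.30), and of Mrc1 (-4.64) and Csf1r (-1.53). Markers of epithelial cells, the lineage of the tumour line, summed to 0.0615 to 0.195 CPM with β-elemene and 0 to 0.194 CPM with PBS, with Krt19 and Cldn4 at 0 in every library. Fibroblast markers were lower with β-elemene, at 1.69 to 3.87 CPM against 13.2 to 17.2 CPM, and 3 of the 5 tested genes of 6 listed passed as lower. Neutrophil markers summed to 22.3 to 26.0 CPM against 9.31 to 12.4 CPM, with 3 of the 5 tested genes passing as higher and 1 as lower. The highest means were those of S100a8 (15.8 against 4.02 CPM) and S100a9 (6.24 against 4.32 CPM). Mpo was called lower (0.145 against 1.54 CPM), and Ly6g and Elane were too low to test. Dendritic cell markers stood at 4.23 to 11.4 CPM against 3.95 to 4.78 CPM, with 2 of 3 tested genes passing as higher and 1 as lower. B cell markers stood at 0.984 to 1.90 CPM against 1.94 to 4.45 CPM, and markers of T and natural killer cells at 0.184 to 0.521 CPM against 0.155 to 0.427 CPM. The part of these differences in the values below was not tested.

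The SR and hnRNP genes were nearly all expressed in these macrophages, and they moved in both directions by small amounts. The exception was Srsf12, a brain- and testis-enriched member, with 0, 0 and 1 counts in the β-elemene libraries and 0, 2 and 0 in the PBS libraries. It was too low to test, and a count of 0 allows up to 3 counts. Of the 30 genes tested with edgeR's quasi-likelihood test after TMM scaling, 12 were called higher with β-elemene, 10 were called lower and 8 did not pass at an adjusted p (Benjamini-Hochberg) of 0.05. That is 73.3% called, against 76.7% of the 11459 genes tested, of which 36.6% were called higher and 40.2% lower. The share of members called was therefore close to the background. The SR genes split into 3 higher, 4 lower and 3 not passing, with a median log2 fold change of 0.03. Among the hnRNP genes 9 were higher, 6 were lower and 5 did not pass, with a median of 0.05. The median over all genes tested was -0.06.

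The size of the changes was smaller than in the transcriptome at large. Only Hnrnph3 and Hnrnpr, 2 of 30, passed with a change of at least 2-fold, a call that 35.3% of all tested genes met. Because members are abundant, the same count was taken over the 6224 genes with a mean level at least that of the lowest tested member, 19.97 CPM, and 1868 of them (30%) met it. The median absolute log2 fold change was 0.30 for the 30 members, 0.52 for those 6224 genes and 0.64 for all genes tested. In 23 of 30 members the 3 β-elemene values did not overlap the 3 PBS values, against 79.9% of all genes tested.

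**Figure D1:**
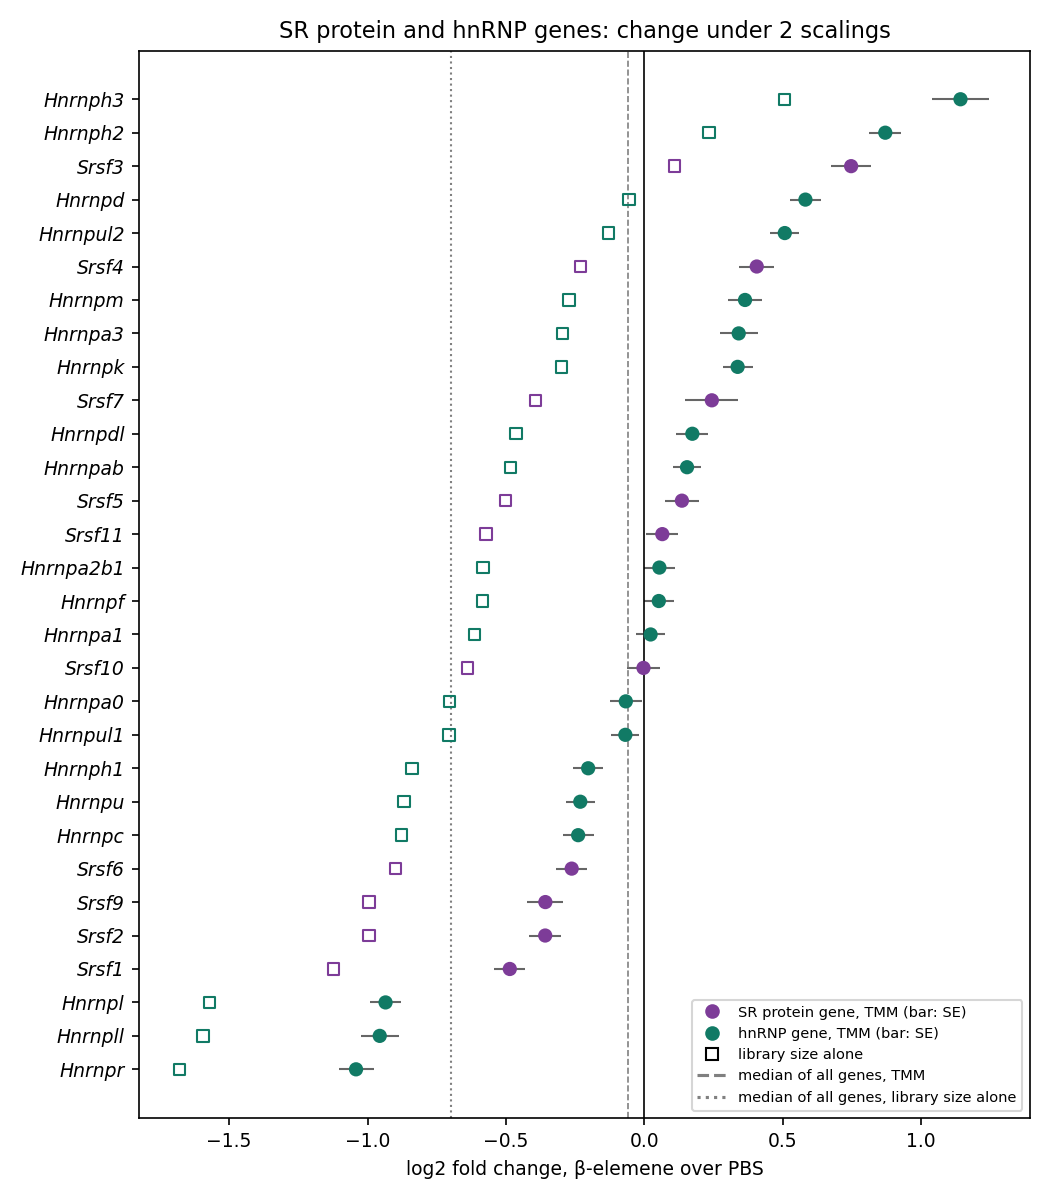
The log2 fold change (β-elemene over PBS, TMM scaling, x axis) is plotted for each of the 30 tested members (y axis), with bars of 1 SE and colours for the family, and open squares give the same value when libraries are scaled by their totals alone. Hnrnph3 at 1.14 and Hnrnpr at -1.04 mark the ends of the range, and every open square lies to the left of its filled point.

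The direction of many members depended on how the libraries were scaled, and this has to be read beside every call. The TMM factors of the β-elemene libraries lay between 0.794 and 0.812 and those of the PBS libraries between 1.24 and 1.26. Scaled by library totals alone, all genes tested had a median of -0.70, a shift of -0.64. As a share of all counts, the SR genes held 0.0893% ± 0.00204 (SD, n = 3) with β-elemene and 0.138% ± 0.00557 with PBS. The hnRNP genes held 0.319% ± 0.00662 and 0.465% ± 0.00142. Both families thus took a smaller share of the reads with β-elemene. After TMM scaling the summed SR level was 1114 ± 26.2 CPM against 1107 ± 39.8 CPM, a difference within the spread between libraries, and the summed hnRNP level was 3981 ± 42.5 CPM against 3726 ± 17.6 CPM. In bulk RNA, fewer cells of a type and less RNA per cell cannot be told apart, and neither can a fall in these transcripts from a rise in the rest. With library totals alone 2 members were called higher and 26 lower, beside 18.9% and 69.8% of all genes. Only Hnrnph2 and Hnrnph3 were called higher under all 4 scalings tried (TMM, median of ratios, upper quartile, library totals), 2 of 30 against 18.9% of all genes. Hnrnpc, Hnrnph1, Hnrnpl, Hnrnpll, Hnrnpr, Hnrnpu, Srsf1, Srsf2, Srsf6 and Srsf9 were called lower under all 4, 10 of 30 against 38.3%. The median over all genes was -0.02 with median of ratios and -0.37 with upper quartile. Upper quartile and library totals moved values down from TMM, so a lower call could hardly be lost under them. Median of ratios alone called 4385 genes lower, and 4385 were lower under all 4. CPM values below are TMM-scaled unless said otherwise.

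Hnrnph2 and Hnrnph3 belong to the hnRNP H/F group, which binds runs of G next to splice sites. Hnrnph2 (chromosome X, 134601179 to 134607060, GRCm38.p6) stood at 261, 263 and 276 CPM in the β-elemene libraries and at 140, 154 and 143 CPM in the PBS libraries. The groups were far apart, with a log2 fold change of 0.87 (SE 0.06, adjusted p 9.47e-09 by edgeR), and 0.23 with library totals alone. Hnrnph3 (chromosome 10, 63014664 to 63023980), the shortest protein of the group, had 24.9, 31.2 and 26.4 CPM with β-elemene and 12.6, 13.5 and 11.3 CPM with PBS. Every β-elemene value was well above every PBS value, with a log2 fold change of 1.14 (SE 0.10, adjusted p 2.84e-07 by edgeR), and 0.51 with library totals alone. Per kilobase of coding transcript (median length over transcripts) Hnrnph3 was the least abundant of the tested members, at 9.21 CPM per kb over all libraries. With the longest transcript or the union of exons as length Hnrnpr was lowest, at 2.28 and 2.21 CPM per kb. Hnrnph1, the closest relative of Hnrnph2, went the other way, at 132, 130.5 and 126 CPM against 152, 143 and 152 CPM, and was called lower by a log2 fold change of -0.20. Hnrnpf, at 205, 208 and 200 CPM against 189, 206 and 197 CPM, overlapped between the groups and did not pass, with a log2 fold change of 0.05 that became -0.58 with library totals alone. Exons of genes on the other strand cover 26.5% of its exonic bases, with the strand setting of the counts unknown. The group therefore held members called higher, called lower and not called.

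Hnrnpr, Hnrnpl and Hnrnpll had the largest falls. Hnrnpr (chromosome 4, 136310942 to 136345981), a relative of Syncrip that acts in mRNA transport and splicing, stood at 30.6, 33.1 and 32.5 CPM with β-elemene and at 65.2, 68.5 and 64.2 CPM with PBS. The highest β-elemene value was under the lowest PBS value by a wide margin, and the log2 fold change was -1.04 (SE 0.06, adjusted p 4.05e-09 by edgeR). Hnrnpl (chromosome 7, 28808546 to 28822268), which binds CA-rich elements, had 63.4, 62.6 and 59.1 CPM against 116, 116.6 and 121 CPM. Its paralog Hnrnpll (chromosome 17, 80029487 to 80062268), known for switching Ptprc (CD45) exons in lymphocytes, had 60.1, 53.4 and 63.3 CPM against 118, 109 and 116 CPM. These paralogs fell side by side, with log2 fold changes of -0.93 and -0.96 and adjusted p of 3.91e-09 and 2.56e-08 by edgeR, and no β-elemene library reached any PBS library. Scaled by library totals alone they were -1.68 for Hnrnpr, -1.57 for Hnrnpl and -1.59 for Hnrnpll.

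The remaining lower calls among hnRNP genes were smaller and held under every scaling, though only median of ratios moved values up from TMM. Hnrnpc, whose tetramers bind U-rich tracts and keep cryptic exons silent, had 156, 164 and 174 CPM against 192, 197 and 194 CPM, a log2 fold change of -0.24. Hnrnpu, the scaffold attachment factor, had 348, 350 and 354 CPM against 410, 414 and 412 CPM, a log2 fold change of -0.23. Hnrnph1, given above with its relatives, was the third. In each of them the groups were separate.

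The most abundant hnRNP genes per kilobase of coding transcript were Hnrnpa2b1 at 337, Hnrnpk at 181 and Hnrnpab at 156 CPM per kb over all libraries. With the union of exons as length the same 3 led in another order, with Hnrnpab at 113, Hnrnpa2b1 at 84.3 and Hnrnpk at 74.6 CPM per kb. Hnrnpa2b1, an exon repressor that also reads N6-methyladenosine, had 558, 571 and 566 CPM with β-elemene and 535, 560 and 538 CPM with PBS. Its groups overlapped and it did not pass, with a log2 fold change of 0.05, or -0.58 with library totals alone. Hnrnpk, a poly(C)-binding protein with KH domains, had 529, 540 and 546 CPM against 426, 420 and 433 CPM, and was called higher by 0.34 (SE 0.05, adjusted p 7.21e-05 by edgeR). Its value was -0.30, called lower, with library totals alone. Hnrnpab, a protein of the AUF1-like group, had 329, 337 and 324 CPM against 299, 297 and 294 CPM, called higher by 0.15 and called lower by -0.48 with library totals alone. Phykpl on the other strand covers 29.1% of the exonic bases of Hnrnpab, with the strand setting of the counts unknown.

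The other members of the AUF1-like group were also called higher after TMM scaling. Hnrnpd encodes AUF1, which binds AU-rich elements of cytokine mRNAs and promotes their decay. It had 120, 128 and 120 CPM with β-elemene and 85.0, 78.1 and 82.9 CPM with PBS, with no overlap, and a log2 fold change of 0.58 (SE 0.06, adjusted p 6.41e-07 by edgeR). The value was -0.05 and did not pass with library totals alone. Its relative Hnrnpdl had 110, 108 and 111 CPM against 98.7, 91.0 and 101 CPM, a log2 fold change of 0.17 that was called higher and became -0.46, called lower, with library totals alone. The call for Hnrnpdl ended when PBS replicate 2 was left out (adjusted p 0.071), and that for Hnrnpab when PBS replicate 3 was left out (adjusted p 0.0535).

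Hnrnpul2, Hnrnpm and Hnrnpa3 completed the hnRNP genes called higher after TMM scaling. Hnrnpul2, a relative of Hnrnpu with a role in the DNA damage response, had 325, 325 and 315 CPM against 222, 226 and 231 CPM, a log2 fold change of 0.51 that became -0.13, called lower, with library totals alone. Hnrnpm, described as a repressor of Il6 intron removal in macrophages, had 210, 239 and 214 CPM against 173, 176 and 165 CPM, a log2 fold change of 0.36 and, with library totals alone, -0.27. Hnrnpa3 had 42.5, 48.9 and 48.1 CPM against 35.5, 37.4 and 37.2 CPM, a log2 fold change of 0.34 and, with library totals alone, -0.30. Each of these groups was separate after TMM scaling, and each was called lower with library totals alone. Hnrnpm shares 1169 exonic bases with March2 on the same strand, and Hnrnpa3 has 25 near-identical pseudogene copies, so the split of reads at both is uncertain.

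Of the hnRNP genes that did not pass, Hnrnpa1, a classic antagonist of SR proteins at exons, had 215, 218 and 214 CPM with β-elemene and 211, 205 and 220.5 CPM with PBS, a log2 fold change of 0.02. Hnrnpa0, a target of the p38 pathway that binds AU-rich cytokine mRNAs, had 107, 99.4 and 96.1 CPM against 108, 105 and 104 CPM, a log2 fold change of -0.07. Hnrnpul1 had 113, 114 and 112 CPM against 118, 120 and 118 CPM, also a log2 fold change of -0.07. Its groups did not overlap although it did not pass, while those of Hnrnpa1 and Hnrnpa0 overlapped. All 3 were called lower with library totals alone, at -0.61, -0.70 and -0.71.

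**Figure D2:**
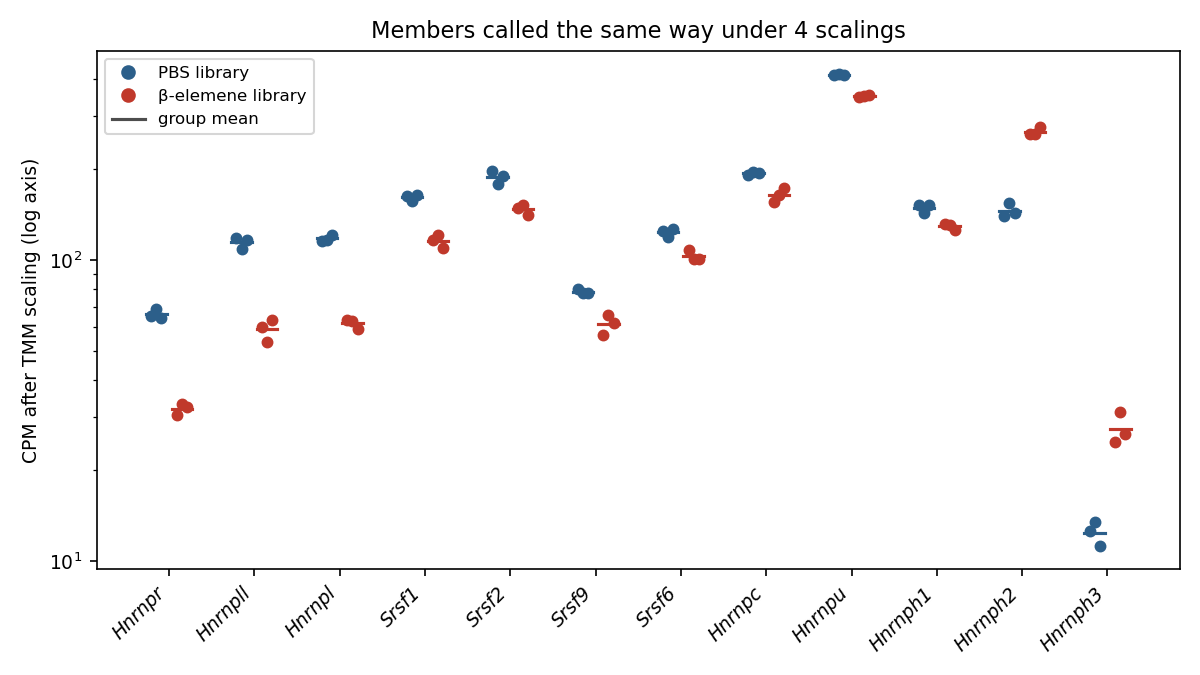
TMM-scaled levels (CPM, log axis) of the 12 members called the same way under all 4 scalings are shown, with a point for each of the 3 PBS and 3 β-elemene libraries and a line for the group mean. Hnrnph2 and Hnrnph3 lie higher with β-elemene, the other 10 lie lower, and no gene has overlapping groups.

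Among SR genes the 3 called higher were Srsf3, Srsf4 and Srsf7. Srsf3 (chromosome 17, 29032660 to 29043372) encodes the smallest SR protein, which also links splicing to mRNA export. It had 221, 219 and 225 CPM with β-elemene and 137, 116 and 143 CPM with PBS. The groups were separate, with a log2 fold change of 0.75 (SE 0.07, adjusted p 5.04e-07 by edgeR), and 0.11, which did not pass, with library totals alone. Srsf4, a long SR protein of the Srsf5 and Srsf6 group, had 43.2, 40.5 and 40.8 CPM against 32.1, 31.0 and 30.8 CPM, a log2 fold change of 0.41 that became -0.23, called lower, with library totals alone. Exons of the antisense gene Gm12992 cover 43% of its exonic bases, and without a known strand setting the reads of both cannot be told apart. Srsf7, which has a zinc knuckle and exports mRNA like Srsf3, had 84.0, 64.8 and 76.5 CPM against 65.3, 57.0 and 67.9 CPM. Its groups overlapped, and its log2 fold change of 0.24 (SE 0.10, adjusted p 0.0358 by edgeR) became -0.39, called lower, with library totals alone. Leaving out β-elemene replicate 1 or 3, or PBS replicate 1 or 2, ended the call for Srsf7, with adjusted p of 0.121, 0.0934, 0.0589 and 0.125.

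The 4 SR genes called lower kept that call under every scaling, where again only median of ratios moved values up. Srsf1 (chromosome 11, 88046499 to 88053757), the prototype SR protein, had 116, 121 and 109 CPM with β-elemene and 163, 157 and 165 CPM with PBS, a log2 fold change of -0.49 (SE 0.06, adjusted p 2.88e-06 by edgeR). Srsf2, known as SC35 and a marker of nuclear speckles, had 149, 152 and 141 CPM against 198, 179 and 190 CPM, a log2 fold change of -0.36 (SE 0.06, adjusted p 7.93e-05 by edgeR). Exons of Mettl23 and Mfsd11 on the other strand cover 25.3% of the exonic bases of Srsf2. Srsf6 fell by 0.26 and Srsf9 by 0.36 on the log2 scale, with no overlap between the groups in either. Srsf6 ranged from 101 to 108 CPM with β-elemene and from 120 to 127 CPM with PBS, and Srsf9, the closest relative of Srsf1, from 56.3 to 65.7 CPM and from 77.4 to 80.1 CPM.

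Srsf5, Srsf10 and Srsf11 did not pass. Srsf5 was the most abundant SR gene per kilobase, at 119 CPM per kb over all libraries, ahead of Srsf2 at 104 and Srsf3 at 67.6. It had 200, 172 and 188 CPM with β-elemene and 172, 167 and 171 CPM with PBS, which touch without overlap, and a log2 fold change of 0.14 (SE 0.06, adjusted p 0.0552 by edgeR). With median-of-ratios scaling it passed as higher (0.18, adjusted p 0.0206 by edgeR), as it did with DESeq2 (0.17, adjusted p 0.0314), while with upper quartile scaling it was called lower at -0.18, and with library totals alone it was called lower at -0.50. Leaving out β-elemene replicate 2 also made it pass as higher (0.22, adjusted p 0.00231 by edgeR). Srsf10, which represses splicing when dephosphorylated, had 79.2, 79.5 and 72.6 CPM against 76.9, 79.3 and 75.5 CPM. Srsf11 had 87.5, 80.7 and 85.0 CPM against 83.1, 77.8 and 81.1 CPM. The groups of both overlapped, and with library totals alone they were called lower, at -0.64 and -0.57.

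The make-up of each family, which no scaling of the libraries can change, shifted along with these values. Levels per kilobase of coding transcript were summed over a family in each library and each member was given as its percentage of that sum. Srsf3 held 15.1% ± 0.415 (SD, n = 3) of the SR sum with β-elemene and 8.84% ± 0.654 with PBS. Srsf2 held 16.3% ± 0.736 against 20.6% ± 0.424 and Srsf1 6.97% ± 0.399 against 9.62% ± 0.144. Srsf5 was the largest part with β-elemene at 22.2% ± 1.17, and with PBS Srsf2 at 20.6% and Srsf5 at 19.9% ± 0.400 were the largest parts. In the hnRNP sum Hnrnpa2b1 led in both groups at 20.98% ± 0.0559 and 21.8% ± 0.481, followed by Hnrnpk at 12.3% ± 0.158 against 10.5% ± 0.181. Hnrnph2 took 6.90% ± 0.228 against 4.06% ± 0.191, while Hnrnpl took 1.76% ± 0.0714 against 3.62% ± 0.0862 and Hnrnpr 0.735% ± 0.0224 against 1.63% ± 0.0519. Of these, Srsf3, Srsf5, Hnrnpk and Hnrnph2 held a larger part with β-elemene and Srsf1, Srsf2, Hnrnpl and Hnrnpr a smaller one, with no overlap between the libraries of the groups. Other members shifted too, such as Srsf4 (3.27% against 2.44%) and Hnrnpd (4.09% against 2.94%) upward, and Srsf9 (9.39% against 11.8%) and Hnrnpll (1.18% against 2.46%) downward.

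Count ratios between close paralogs are also free of library scaling. Of 18 listed pairs 17 had enough counts, and in 13 the ratios of the β-elemene libraries did not overlap those of the PBS libraries. The share of such pairs among unrelated genes was not taken. Of all single genes tested, 79.9% did not overlap after TMM scaling, so the count of 13 is not read as particular to paralogs. With 3 libraries against 3 the exact two-sided permutation test cannot go below p = 0.1, or 0.131 after Benjamini-Hochberg adjustment over the 17 pairs, so none could pass. The ratio of Hnrnph3 to Hnrnph1 was 0.189, 0.239 and 0.210 with β-elemene and 0.0830, 0.0944 and 0.0740 with PBS, a log2 difference of 1.34. The ratio of Hnrnph2 to Hnrnph1 was 1.98, 2.01 and 2.19 against 0.925, 1.08 and 0.937, a log2 difference of 1.07. These were the 2 pairs that differed by at least 1 on the log2 scale, and in the PBS libraries Hnrnph1 and Hnrnph2 stood near parity. The ratio of Hnrnpr to Syncrip was 0.205, 0.198 and 0.223 against 0.370, 0.402 and 0.372, a log2 difference of -0.87. For Hnrnpul2 over Hnrnpu it was 0.933, 0.927 and 0.890 against 0.540, 0.547 and 0.560, a difference of 0.74. For Srsf6 over Srsf4 it was 2.50, 2.50 and 2.47 against 3.89, 3.86 and 4.11, a difference of -0.67. Hnrnpc over its paralog Raly gave -0.61 and Srsf7 over Srsf3 gave -0.51. By contrast the ratio of Hnrnpll to Hnrnpl was 0.949, 0.852 and 1.07 against 1.02, 0.932 and 0.957, which overlapped (difference -0.02, exact permutation p = 0.9), and so did Srsf9 over Srsf1 (0.13, exact permutation p = 0.3). The other overlapping pairs were Hnrnpa1 and Hnrnpa0, each over Hnrnpa2b1, at -0.03 and -0.12.

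**Figure D3:**
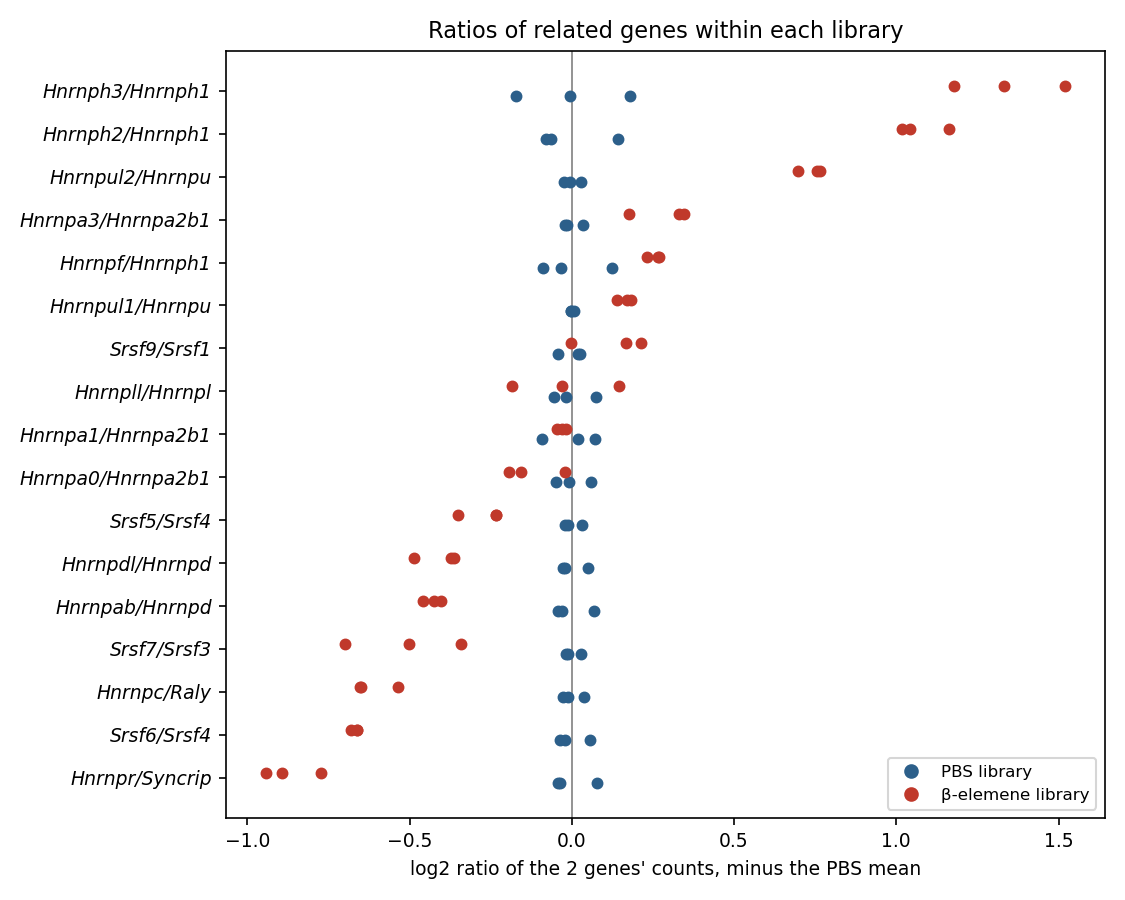
The log2 ratio of the counts of related genes, minus the mean of the PBS libraries (x axis), is plotted for each library of the 17 compared pairs (y axis), with red points for β-elemene and blue points for PBS. The Hnrnph3 and Hnrnph2 ratios to Hnrnph1 differ by 1.34 and 1.07, and those of Hnrnpll to Hnrnpl overlap.

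Promoters of the members are shown so that the letters searched for can be seen in place. RefSeq windows of the same build, from 250 bases before to 50 bases after an annotated start, were matched for 29 of 31 members, with 41 windows. Hnrnpll and Hnrnpul2 had none. The median GC content of these windows was 68.3%, against 52.7% over 32851 windows of all genes. The stretches below are bases upstream of the matched start that lie in no exon of a protein-coding gene, read 5′ to 3′ on the strand of the gene. Capitals mark CCAAT boxes (CCAAT, or ATTGG on the other strand) and the E2F-type letters TTTCCCGC. The matched starts of Srsf1 and Hnrnpul1 are internal. Their stretches lie inside the annotated spans of these genes, 88046499 to 88053757 and 25721161 to 25756268. Hnrnpr (chr4:136310692-136310941, plus strand) is the member with the largest fall, Srsf1 (chr11:88047123-88047372, plus strand) the SR gene with the largest fall, Srsf3 (chr17:29032410-29032627, plus strand) the SR gene with the largest rise, and Hnrnpul1 (chr7:25754760-25755009, minus strand) a member that did not pass.
Hnrnpr: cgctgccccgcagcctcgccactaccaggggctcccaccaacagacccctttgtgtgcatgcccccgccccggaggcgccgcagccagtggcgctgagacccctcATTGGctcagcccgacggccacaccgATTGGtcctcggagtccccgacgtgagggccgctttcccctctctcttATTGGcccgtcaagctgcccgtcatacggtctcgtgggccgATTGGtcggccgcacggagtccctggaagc
Srsf1: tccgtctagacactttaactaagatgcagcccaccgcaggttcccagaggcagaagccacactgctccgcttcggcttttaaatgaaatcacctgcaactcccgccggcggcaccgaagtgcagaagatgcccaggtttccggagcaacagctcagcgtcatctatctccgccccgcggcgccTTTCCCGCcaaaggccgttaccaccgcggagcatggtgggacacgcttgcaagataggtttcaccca
Srsf3: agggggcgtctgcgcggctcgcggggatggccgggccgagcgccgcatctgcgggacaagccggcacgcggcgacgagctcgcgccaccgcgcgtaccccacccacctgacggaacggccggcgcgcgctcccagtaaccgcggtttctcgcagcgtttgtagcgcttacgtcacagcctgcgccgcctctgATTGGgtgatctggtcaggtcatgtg
Hnrnpul1: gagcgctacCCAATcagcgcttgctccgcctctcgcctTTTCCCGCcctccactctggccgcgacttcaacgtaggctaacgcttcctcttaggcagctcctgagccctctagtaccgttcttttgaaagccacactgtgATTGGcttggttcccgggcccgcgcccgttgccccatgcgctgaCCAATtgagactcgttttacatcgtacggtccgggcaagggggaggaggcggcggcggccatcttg

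A CCAAT box on either strand was present in a window of 17 of the 29 matched members (58.6%), against 41.1% of 27025 genes. Counted by window it was 21 of 41, against 37.4% of all windows. Windows of Hnrnpa1, Hnrnpc, Hnrnpl, Hnrnpr and Hnrnpul1 held 4 and windows of Hnrnpab and Hnrnph2 held 3, and these include members called lower, called higher and not passing. One box of Hnrnpul1, at 13 from the start, lies after the printed stretch. The box of Srsf1, at -3, runs past the end of its printed stretch. The letters TTTCCCGC were found in Hnrnpr, Hnrnpul1, Srsf1 and Srsf10, 4 of 29 (13.8%) against 1.24% of all genes. Of these Hnrnpr and Srsf1 were called lower, while Hnrnpul1 and Srsf10 did not pass. In Hnrnpr the letters lie in another window, from 136311348 and inside the gene's span, and not in the printed stretch. The ETS-type letters CCGGAAGT were found in 5 members (17.2% against 4.31%), the NRF1-type letters GCATGCGC in 3 (10.3% against 3.05%) and TATAAA in 4 (13.8% against 15.7%). Neither the interferon-type letters GAANNGAAA (8.68% of all genes) nor the NF-κB-type letters GGANTTTCC (1.45%) occurred in a member's window. GC content differs between the members' windows and all windows, and members have more windows per gene. The part of either in these shares was not tested.

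Transcript annotation differed between the families and the protein-coding genes at large. Genes were not matched on the number of annotated transcripts or on level, and the part of these was not tested. In GENCODE M21 a transcript marked for nonsense-mediated decay was listed for 9 of 11 SR genes (81.8%), 10 of 20 hnRNP genes (50%) and 4338 of the 20219 protein-coding genes in the table (21.5%). A transcript with a retained intron was listed for 8 SR genes (72.7%), 14 hnRNP genes (70%) and 43.9% of the protein-coding genes. Counts per gene add all transcripts of a gene, so the levels above do not separate productive from decaying forms. Near-identical pseudogenes, with at least 95% identity over at least 300 bases, were found for 10 members, among them Hnrnpa3 with 25, Hnrnpa1 with 9, Hnrnpf with 6 and Srsf3 with 3, and how shared reads were counted is not given in the sources used here.

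Other genes of splicing control were examined through 10 lists, which held 154 genes of the table, 140 of them tested. Of these 58 were called higher, 37 lower and 45 did not pass, with a median log2 fold change of 0.08, beside 36.6% higher, 40.2% lower and a median of -0.06 over all genes tested. With library totals alone 12 were called higher and 119 lower, beside 18.9% and 69.8% of all genes. At least 2-fold changes were called in 11 of the 140, beside 35.3% of all genes. The lists below therefore share the dependence on scaling that the members and all genes tested have.

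Of the 22 SR-related proteins 12 were called higher and 1 lower after TMM scaling, beside 36.6% and 40.2% of all genes, with a median of 0.21. With library totals alone 2 were called higher and 19 lower, beside 18.9% and 69.8% of all genes. Tra2a, a splicing activator of exons with GAA repeats, had 162, 170 and 201 CPM with β-elemene and 43.5, 44.9 and 44.9 CPM with PBS, a log2 fold change of 1.9996 (SE 0.08, adjusted p 5.55e-11 by edgeR) that was 1.36 with library totals alone. Its paralog Tra2b had 167 against 96.0 CPM on average, a log2 fold change of 0.80 that was 0.16 and still called higher with library totals alone. Srek1 was the single gene of the list called lower, at -0.57. The kinases that phosphorylate SR proteins split into 2 higher, 4 lower and 3 not passing of 9 tested, with a median of -0.25. Srpk2 fell most, from 26.6 ± 1.13 to 8.18 ± 1.68 CPM (SD, n = 3), a log2 fold change of -1.70, followed by Clk4 at -0.63 and Dyrk1b at -0.55. Clk3 was the kinase with the largest rise, at 0.53, and did not pass with library totals alone (-0.11). Of the import receptors, Tnpo1, which carries hnRNP A1 into the nucleus, was called lower (124 against 209 CPM, log2 fold change -0.75), and Tnpo3, the SR protein receptor, was called higher at 0.17 and lower at -0.47 with library totals alone.

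The hnRNP proteins under other symbols split into 10 higher, 9 lower and 4 not passing of 23 tested, with a median of 0.17. Among all genes tested 36.6% were called higher and 40.2% lower. With library totals alone 3 of the list were called higher and 19 lower, beside 18.9% and 69.8% of all genes. Msi2, a translational regulator, had 13.9 against 1.90 CPM (log2 fold change 2.86). Nono, a paraspeckle protein, had 486 against 153 CPM (1.67), and Ptbp3, a polypyrimidine tract-binding protein, 456 against 220 CPM (1.05). Msi2, Nono and Ptbp3 were called higher with library totals alone too, at 2.23, 1.03 and 0.42. Matr3, a nuclear matrix protein, was called lower at -0.63. Ptbp1, Syncrip and Raly, taken up as relatives of members, stood at -0.27, -0.17 and 0.37. Among other regulators of alternative splicing 8 of 17 tested were higher and 6 lower, with a median of -0.01. With library totals alone 2 of them were called higher and 13 lower. Tial1 was called lower at -0.998 (31.8 against 63.5 CPM), while Khdrbs1, which encodes Sam68, was called higher at 0.93 (167 against 87.6 CPM) and Ythdc1, the nuclear N6-methyladenosine reader, at 0.77, both also with library totals alone (0.29 and 0.13).

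Core spliceosome genes showed the same mixture after TMM scaling, beside 36.6% higher and 40.2% lower among all genes tested. U1 proteins had 3 higher, 2 lower and 4 not passing of 9, with Snrpa at -0.87, Luc7l at -0.66 and Snrpc at 0.55, which did not pass with library totals alone. U2 and branch site proteins had 7 higher, 5 lower and 8 not passing of 20, with Snrpb2 at 0.66 (library totals alone 0.02, not passing), Sf3a1 at -0.47 and Sf3a3 at 0.44 (library totals alone -0.19, called lower). Tri-snRNP proteins had 5 in each class, with Prpf4 at 1.20 and Snrnp27 at 0.92, both also called higher with library totals alone, and Ppih at -0.63. Sm proteins had 2 higher, 1 lower and 4 not passing of 7, with Snrpg at -0.37, and with Snrpb at 0.30 and Snrpf at 0.28, which were called lower with library totals alone (-0.33 and -0.36). Every list of the core machinery held calls in both directions after TMM scaling. With library totals alone the U1, U2 and Sm lists had 0 higher calls and 8, 19 and 7 lower calls. The tri-snRNP list then had 2 higher and 13 lower, beside 18.9% and 69.8% of all genes.

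Genes of the exon junction complex and of nonsense-mediated decay, the pathway that removes the decaying forms of SR and hnRNP transcripts, had 8 higher, 3 lower and 4 not passing of 15, with a median of 0.22. Among all genes tested 36.6% were called higher and 40.2% lower. Scaled by library totals alone, the list had 3 higher and 10 lower, beside 18.9% and 69.8% of all genes. Magohb, a core protein of the exon junction complex, had 18.2 against 4.05 CPM (log2 fold change 2.17), and Smg8 was called higher at 1.05. With library totals alone these were 1.53 and 0.41, both called higher. Upf3b, which bridges the complex to the decay factors, was called lower at -1.01.

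**Figure D4:**
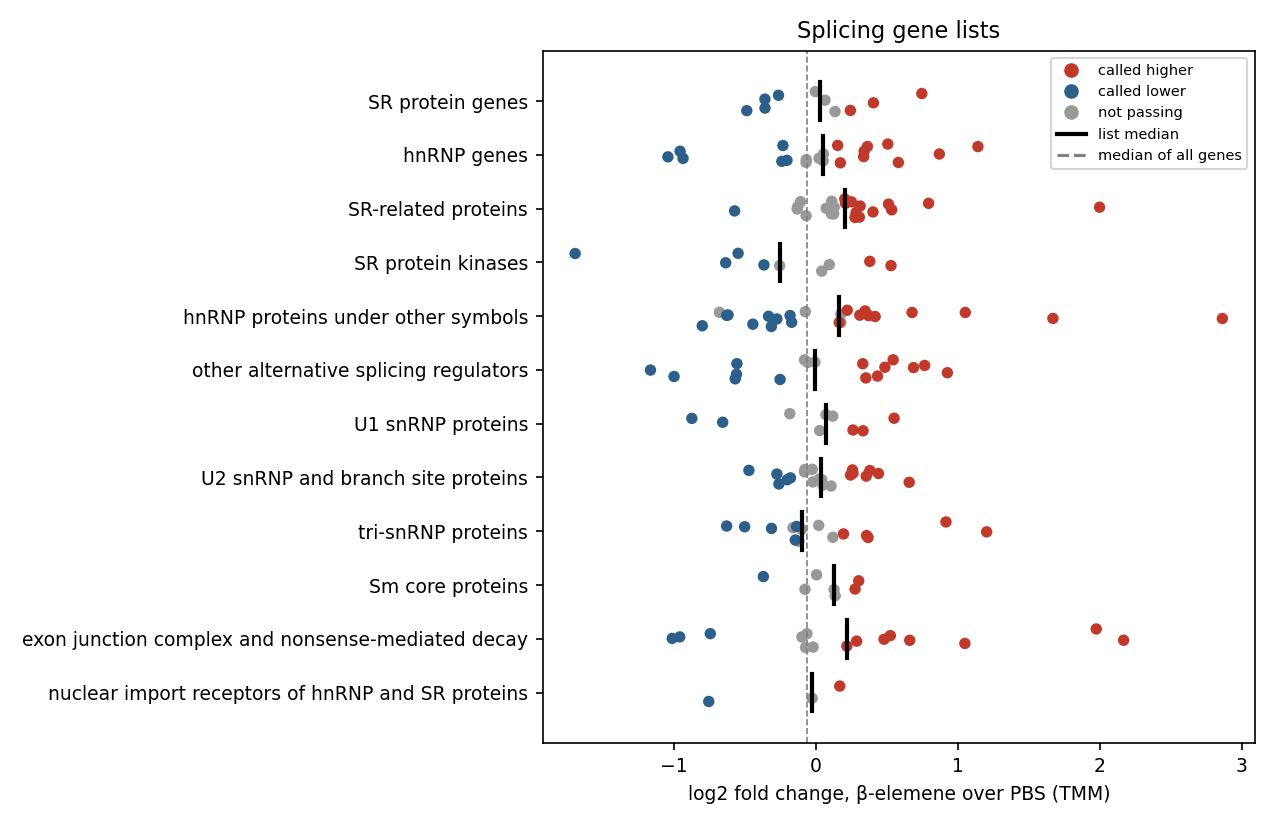
Each point is a tested gene, placed by its log2 fold change (β-elemene over PBS, TMM scaling, x axis) in its splicing list (y axis), with red for called higher, blue for called lower and grey for not passing, a black bar for the list's median and a dashed line for the median of all genes at -0.06. Points of most lists lie on both sides of 0, and the SR-related list has 12 red points and 1 blue point.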

How the data were processed

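The table the authors deposited holds whole-number read counts, unnormalised and 1 row a gene. Per the labels the libraries came from a stranded poly(A) kit with paired reads of 125 or 150 bases, made after an RNA integrity number of at least 7. The aligner HISAT2 2.2.1.0 and the genome names GRCm38.p6 and mm10 stand in the submitters' processing notes. Neither the counting tool nor its strand setting is given in the sources used here. Symbols that a spreadsheet had turned into dates (27) were restored by gene identifier. The 11459 genes left by filterByExpr were fitted with edgeR 4.0.16 in R 4.3.3 (TMM, glmQLFit, glmQLFTest, residual degrees of freedom 4). Treatment was the single factor, and p-values were adjusted by Benjamini-Hochberg over these genes. The procedure was tested on simulated data in which 200 genes were changed, in both directions. That is far fewer than were called here, so the simulation could not test the choice of scaling. Levels per kilobase used the median length of coding transcripts in GENCODE M21. Marker sums are TMM-scaled CPM. Pseudogenes were found by BLAST of transcripts, and motifs were searched on both strands.

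The members and lists were chosen with earlier results of these data known. All members are accounted for. Of each other list the 3 passing genes with the largest change and a mean of at least 5 CPM were named, plus the one of opposite sign with the largest change, and Ptbp1, Syncrip and Raly were added after their values were seen as relatives of members. 1 gene that this rule names is not reported here. Alternatives were DESeq2 1.42.0, limma-voom (limma 3.58.1), 3 other scalings, 2 other filters, a replicate block and each library left out. Protein sequences were not used here.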

Additional observations from a re-analysis of the deposited data

How the results depend on the processing

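Scaling was the choice that mattered. With library totals alone 2166 of all genes were called higher and 8003 lower, and the counts were 0 higher and 9 lower for SR genes and 2 higher and 17 lower for hnRNP genes. With upper quartile scaling 2947 of all genes were called higher and 6528 lower, and the counts were 1 and 7 for SR genes and 4 and 13 for hnRNP genes. The difference in share of counts was 0.000635 percentage points for SR genes and 0.0255 for hnRNP genes after TMM scaling, where it was negative before. Log2 fold changes that turned negative with upper quartile scaling were those of Hnrnpa1 (-0.29), Hnrnpa2b1 (-0.26), Hnrnpab (-0.16), Hnrnpdl (-0.14), Hnrnpf (-0.26), Srsf11 (-0.25), Srsf5 (-0.18) and Srsf7 (-0.071).

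With library totals alone the values of Hnrnpa1 (-0.61), Hnrnpa2b1 (-0.58), Hnrnpa3 (-0.30), Hnrnpab (-0.48), Hnrnpd (-0.055), Hnrnpdl (-0.46), Hnrnpf (-0.58), Hnrnpk (-0.30), Hnrnpm (-0.27), Hnrnpul2 (-0.13), Srsf11 (-0.57), Srsf4 (-0.23), Srsf5 (-0.50) and Srsf7 (-0.39) turned negative. Srsf10, at -0.00, turned to 0.037 with median-of-ratios scaling and 0.035 with DESeq2. Leaving out each library gave 4021 to 4296 genes called higher, 4347 to 4477 called lower, 2 to 4 SR genes and 8 to 9 hnRNP genes called higher, and -0.020 to 0.053 for Srsf10 and -0.0023 to 0.050 for Hnrnpa1. Same-numbered libraries did not deviate together (correlations -0.0164, 0.0894 and 0.0383). With the replicate block 4188 of all genes were called higher and 4605 lower. The counts were then 4 and 4 for SR genes and 9 and 6 for hnRNP genes, with Srsf5 now passing as higher (0.13, adjusted p 0.0463 by edgeR). The call of Srsf7 ended in 4 of the 6 fits with a library left out. With the union of exons as length, an alternative chosen after seeing the data, Srsf2 (56.9 CPM per kb) ranked above Srsf5 (44.7) and Srsf9 (42.2) above Srsf3 (22.4).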
